A study of Rattus norvegicus with 8 samples.

Results

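The glutathione S-transferases were read in adrenal glands of newborn rats kept in low oxygen and of newborn rats kept in room air. The members were every probe set of the array whose platform gene symbol began with Gsta, Gstm, Gstp, Gstt, Gsto or Mgst, which gave 18 of 15866 probe sets. Of these, 17 each stood for 1 gene and 1 was annotated to 2 alpha-class genes and names none. The genes fell into the alpha (3 genes), mu (6), pi (1), theta (3), omega (1) and microsomal (3) classes. The hypoxic group held 4 pools of glands from pups kept with their dams at 12% O2 from birth to postnatal day 7, and the normoxic group 4 pools from pups of the same age whose dams lived in room air and ate freely. Each pool held 24 decapsulated glands and was read on 1 array with 1 colour. Strain and sex of the pups, and how litters were spread over pools, are not given in the sources used here, so p-values measure the spread between these pools, which may in part be technical.

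Glutathione S-transferases attach the tripeptide glutathione to reactive, electrophilic compounds, which can then be exported from the cell and broken down. The cytosolic classes are soluble dimers that differ in their preferred substrates, and the microsomal enzymes are membrane proteins of a separate family. Steroid-producing cells generate reactive oxygen and lipid peroxidation products through their mitochondrial cytochromes P450, and alpha-class transferases are known to be abundant in such cells. The chromaffin cells of the medulla face quinones that form when catecholamines oxidise.

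The upstream sequences of the pair of genes whose hypoxic and normoxic values did not overlap, Gsta4 and Gstm2, are shown with that of Gstp1, which holds a match to the core of the antioxidant response element, the DNA element through which the factor Nrf2 switches on many detoxification genes. They run from 250 bases before to 50 bases after the gene's start (RefSeq, GRCr8), 5′ to 3′ in the direction of the gene, at chr8:87947015-87947314 on the plus strand for Gsta4, chr2:198316868-198317167 on the minus strand for Gstm2 and chr1:210769656-210769955 on the minus strand for Gstp1. Capitals mark the match.
Gsta4: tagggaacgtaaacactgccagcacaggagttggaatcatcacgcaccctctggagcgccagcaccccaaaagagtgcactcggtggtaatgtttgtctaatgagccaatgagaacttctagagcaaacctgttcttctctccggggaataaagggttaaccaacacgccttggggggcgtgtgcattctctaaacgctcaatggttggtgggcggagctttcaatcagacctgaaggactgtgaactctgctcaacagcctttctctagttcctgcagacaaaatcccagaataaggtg
Gstm2: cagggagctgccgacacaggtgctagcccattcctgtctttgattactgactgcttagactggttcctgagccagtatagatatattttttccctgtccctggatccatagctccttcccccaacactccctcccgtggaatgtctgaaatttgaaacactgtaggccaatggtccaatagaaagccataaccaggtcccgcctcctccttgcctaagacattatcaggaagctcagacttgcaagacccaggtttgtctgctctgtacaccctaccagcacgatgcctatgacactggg
Gstp1: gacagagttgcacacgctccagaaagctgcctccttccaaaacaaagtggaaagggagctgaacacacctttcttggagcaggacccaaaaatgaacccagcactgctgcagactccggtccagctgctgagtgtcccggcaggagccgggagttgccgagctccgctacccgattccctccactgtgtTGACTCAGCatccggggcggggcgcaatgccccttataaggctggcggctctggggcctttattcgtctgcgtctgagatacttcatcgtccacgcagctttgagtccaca
The motif searched was TGACNNNGC on both strands. Of the 17 member genes, 14 had a promoter window and 5 of these held the motif in at least 1 window. Of all 33469 promoters of the same length 12.1% held it, a share per window and not per gene. The window of Gstp1 held TGACTCAGC, starting 61 bases before the gene's start. Gstm5 held 2 matches, TGACCACGC and TGACCCCGC, Gstm7 held TGACACAGC and 1 of the 2 windows of Gsta3 held TGACTTCGC. Gsta1 held TGACTTTGC, which starts 31 bases after the gene's start and so is not upstream of it. The windows printed for Gsta4 and Gstm2 held no match, which says only that these letters are not within them. In GRCr8 the 6 mu genes on the array lie close together on chromosome 2, whereas the alpha genes lie apart, Gsta4 on chromosome 8 and Gsta1 and Gsta3 on chromosome 9.

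Values are intensities per probe set in arbitrary units, which the authors had scaled to a common mean on every array. Array medians lay between 228.6 and 249.2. Of 10 cortex markers 9 and of 12 chromaffin markers 11 were measured above the brightness filter, and none of them had a value of 0. The filter keeps most probe sets, and 10 of 10 fibroblast, 8 of 10 endothelial and 8 of 11 leukocyte markers passed it too. Passing it therefore does not identify the tissue. Over all 11106 tested probe sets, limma called 20 at an adjusted p under 0.05, with 13 of them higher and 7 lower in hypoxic pools. That count was 0 in 5 of the 8 fits that left out a pool, without hypoxic pool 2 or 3 or normoxic pool 1, 2 or 3. Precision is limited by the number of arrays.

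Among the transferases, 15 of 17 genes passed the brightness filter and were tested, and 2 of the 15, Gsta4 and Gstm2, were lower in every hypoxic pool than in any normoxic pool. None of the 15 passed limma adjusted over all probe sets, where 0.18% of all tested probe sets did (0.117% higher and 0.063% lower). At an unadjusted p under 0.05 there were 2 of 15, both lower, against 8.64% of all tested probe sets in either direction (4.48% lower and 4.16% higher). Groups that do not overlap with hypoxic pools lower made up 2.64% of all tested probe sets (2.76% with hypoxic pools higher, 5.39% in either direction). The 15 genes had a median log2 difference of -0.03, with 9 genes lower and 6 higher. All 11106 tested probe sets had a median of -0.02, with 6090 lower and 5016 higher. The members were chosen with these differences known, so the counts are a description.

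**Figure D1:**
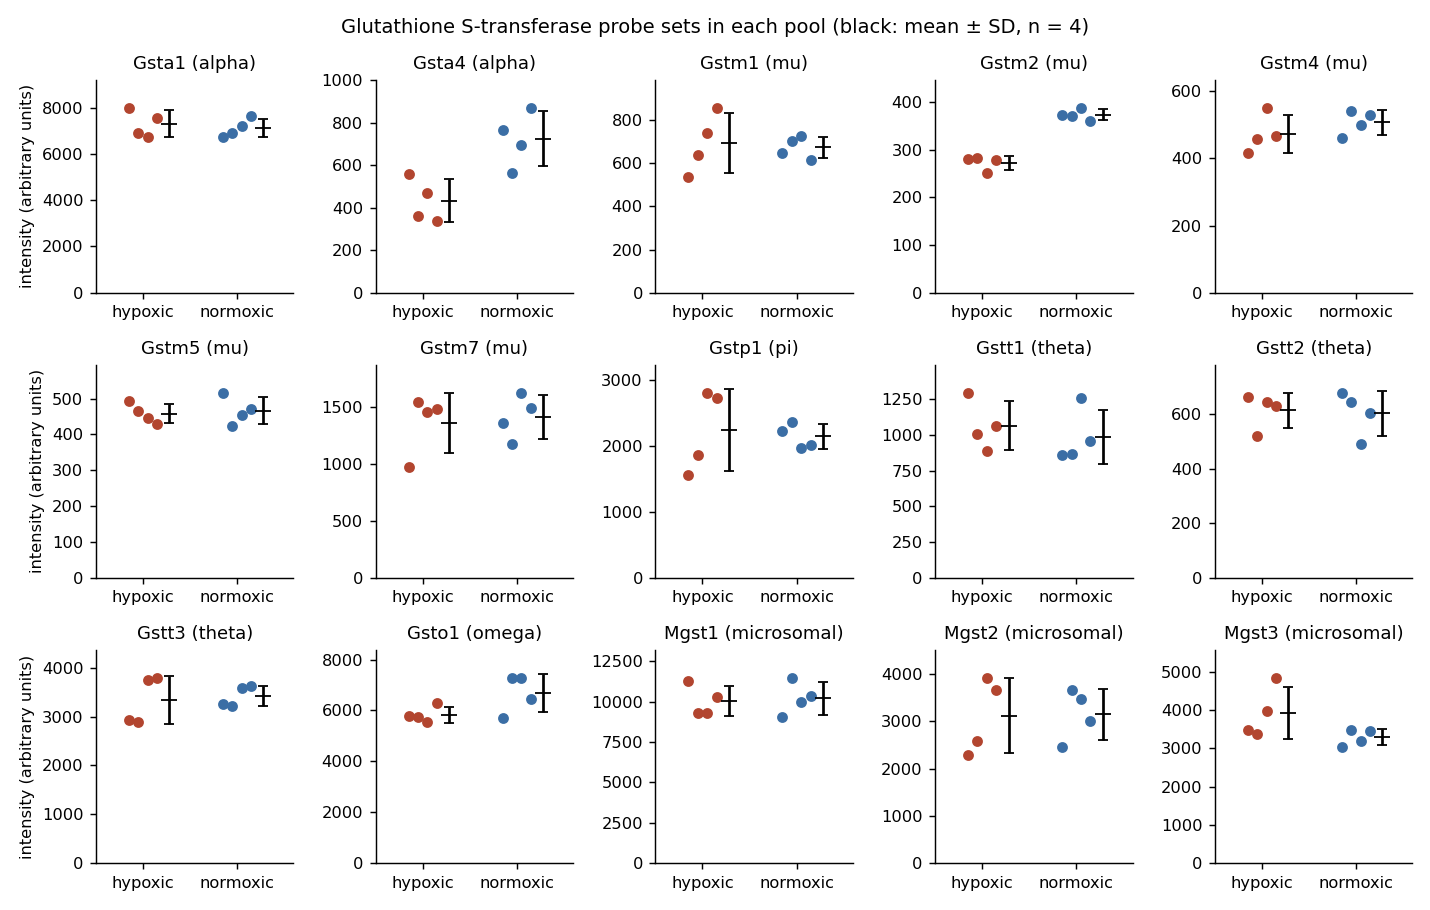
Intensity (arbitrary units, axes from 0) of the 15 tested glutathione S-transferase genes in each pool, a panel per gene, with hypoxic pools in red at the left and normoxic pools in blue at the right; black bars are the mean ± SD (n = 4 pools). The groups are apart in the panels of Gsta4 and Gstm2 and overlap in the other 13.

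Gsta4, the alpha-class enzyme that conjugates 4-hydroxynonenal and related aldehydes of lipid peroxidation, read 559, 363, 468 and 339 in hypoxic pools 1 to 4, against 764, 563, 697 and 871 in normoxic pools 1 to 4. Every hypoxic pool lay below every normoxic pool, and the gap was narrow, with hypoxic pool 1 just under normoxic pool 2. The means were 432 ± 101 in hypoxic and 724 ± 129 in normoxic glands (SD, n = 4 pools each), a ratio of 0.597. The log2 difference was -0.73 with a standard error of 0.17 and a 95% interval from -1.11 to -0.36, and it did not pass (limma, adjusted p = 0.180; unadjusted p = 0.00110). The exact permutation test of its 8 log2 values gave the smallest p that 4 against 4 pools allow, 0.0286 (two-sided). Groups without overlap always give this p, so it restates the separation, which 5.39% of all tested probe sets showed in either direction.

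Within each group, the 2 pools with the higher adipose marker signal were also the 2 with more Gsta4. Of 12 adipose markers 8 were measured, and none had a value of 0. All 8 had a log2 difference below 0, as did 6090 of the 11106 tested probe sets. None of the 8 passed limma, and 1 had an unadjusted p under 0.05. Their summed intensity was 9538, 3859.8, 10054 and 5681 in hypoxic pools 1 to 4, and 13959.9, 4987, 5729 and 12410.3 in normoxic pools 1 to 4. Hypoxic pools 1 and 3 and normoxic pools 1 and 4 were the high pools of their groups in both measures. The same pools were high in the summed fibroblast and red cell markers, so the match was not particular to fat. Fibroblast sums were 31493, 19908, 26333 and 21655 in hypoxic pools, and 30152, 17765, 18943 and 28798.5 in normoxic pools. Red cell sums were 26656, 22437, 30992 and 23011 in hypoxic pools, and 21979, 21260, 20867 and 23108 in normoxic pools. The remaining marker lists had other high pools in at least 1 group. The adipose mean itself was not clearly different between the groups (exact permutation p = 0.4). Chromaffin markers differed more, with 11 of 11 measured higher in hypoxic pools and 6 at an unadjusted limma p under 0.05 (4.16% of all tested probe sets). They were not used as a covariate. With the mean of the adipose genes as a covariate, the log2 difference of Gsta4 was -0.59 (limma, adjusted p = 0.195, where the alternatives gave 0.064 to 0.513). In pooled tissue, fewer cells of a type and less RNA per cell cannot be told apart.

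**Figure D2:**
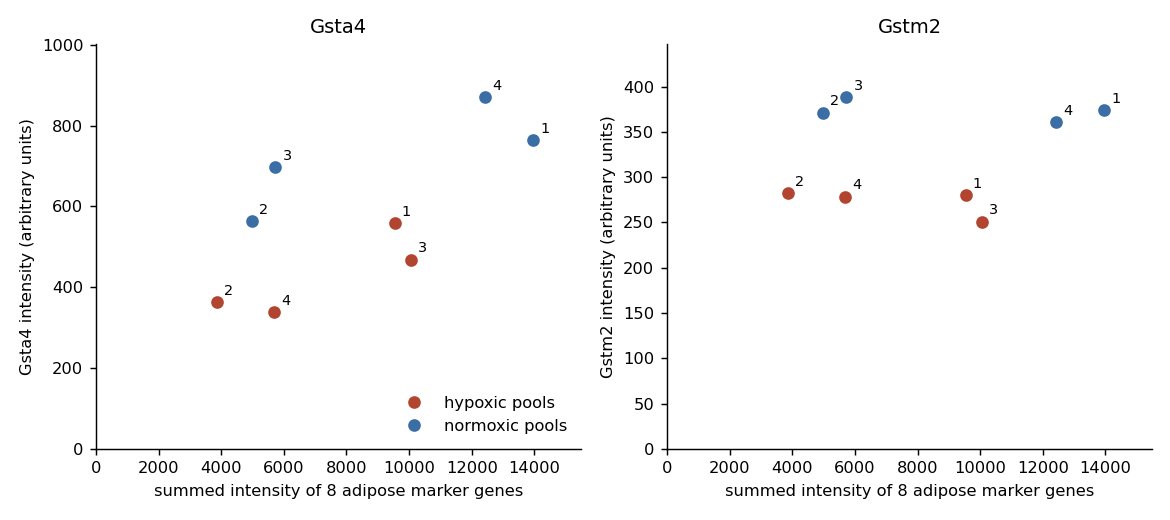
Intensity of Gsta4 (left panel) and Gstm2 (right panel) against the summed intensity of 8 adipose marker genes, in arbitrary units, with a point per pool numbered by replicate, hypoxic in red and normoxic in blue. Within each group the 2 pools with the higher adipose sum have the higher Gsta4 values, while Gstm2 stays between 251 and 282 in hypoxic pools and between 361 and 389 in normoxic pools.

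In the same class, Gsta1, which encodes an alpha-class subunit abundant in rat liver, read 8018, 6913, 6752 and 7561 in hypoxic pools, against 6721, 6912, 7238 and 7632 in normoxic pools. The groups overlapped. Its log2 difference was 0.04 with a 95% interval from -0.16 to 0.23 (limma, adjusted p = 0.951). Within pools, the difference between the changes of Gsta1 and Gsta4 was 0.77 on the log2 scale, at the smallest exact permutation p of 0.0286, with 0.158 after adjustment over all 105 pairs of members. Gsta3 was below the brightness filter (an intensity of 95.2), with 4.7 to 28.8 in hypoxic and 2.2 to 15.1 in normoxic pools. The probe set annotated to 2 alpha-class genes was below it too, with 51.4 to 137 in hypoxic and 43.3 to 114 in normoxic pools. How far the other alpha probe sets, that of Gsta1 among them, take up transcripts of related alpha genes was not tested.

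Of the mu class, 5 of 6 genes were tested, and of these 5 Gstm2 had groups without overlap. Gstm2, whose human counterpart conjugates aminochrome and other quinones derived from catecholamines, read 279.7, 282, 251 and 279 in hypoxic pools, against 374, 371, 389 and 361 in normoxic pools. Both groups were tight, and the lowest normoxic pool lay well above the highest hypoxic pool. The means were 273 ± 14.7 in hypoxic and 374 ± 11.4 in normoxic glands (SD, n = 4 pools each), a ratio of 0.730. The log2 difference was -0.43 with a standard error of 0.10 and a 95% interval from -0.66 to -0.20, which did not pass (limma, adjusted p = 0.204; unadjusted p = 0.00142). An exact permutation test gave the smallest possible p, 0.0286 (two-sided), which again only restates that the groups do not overlap. With the adipose mean as a covariate the difference was -0.45 (limma, adjusted p = 0.211, where the alternatives gave 0.160 to 0.469).

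The other mu genes gave overlapping groups. Gstm1, which conjugates a wide range of aromatic electrophiles, read 538, 639.7, 739.7 and 859 in hypoxic pools, against 647, 702, 728 and 617 in normoxic pools. Hypoxic pools held both its lowest and its highest value, and its log2 difference was 0.03 (95% interval -0.27 to 0.32; limma, adjusted p = 0.979). The change of Gstm2 was lower than that of Gstm1 by 0.46 on the log2 scale in the within-pool comparison (exact permutation p = 0.0286; adjusted over pairs 0.158). Gstm7 averaged 1359 ± 263 in hypoxic and 1411 ± 191 in normoxic glands (log2 -0.07), and hypoxic pool 1 was its lowest, at 969.8, with the next hypoxic pool at 1449.5. Gstm4 averaged 472 ± 57.3 in hypoxic and 508 ± 36.8 in normoxic glands (log2 -0.11). Gstm5, known from testis and brain, averaged 458 ± 27.3 in hypoxic and 467 ± 38.5 in normoxic glands (SD, n = 4 pools each; log2 -0.03). Gstm3 was below the brightness filter, with 8.4 to 13.9 in hypoxic and 10.8 to 14.5 in normoxic pools. Mu genes are close in sequence, and how far their probe sets take up each other's transcripts was not tested.

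**Figure D3:**
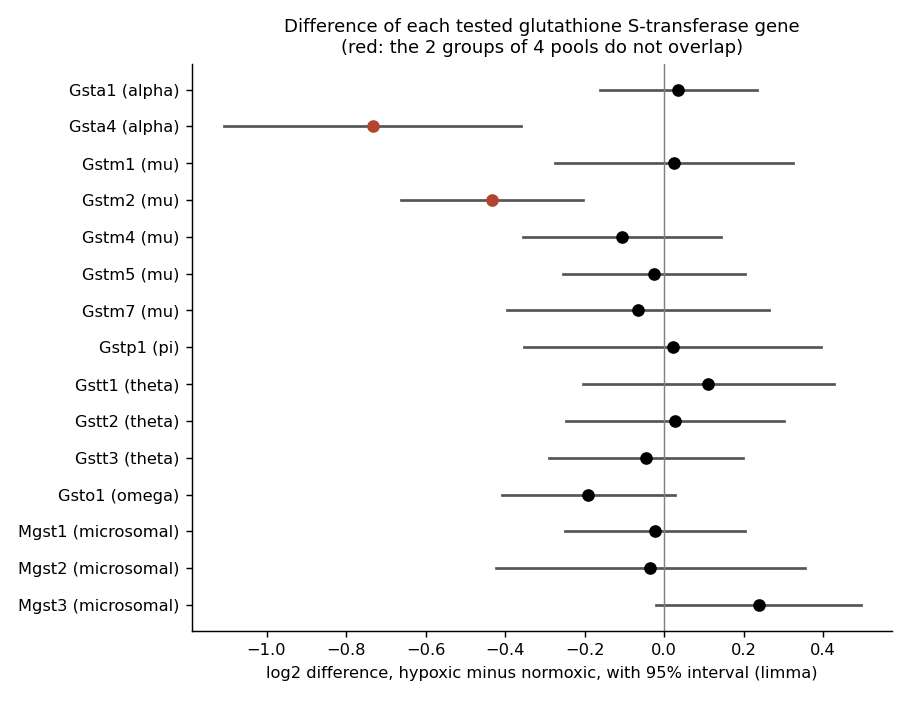
Log2 difference, hypoxic minus normoxic, of the 15 tested genes with 95% intervals from limma, arranged by class; red points are genes whose groups do not overlap. The intervals of Gsta4 (-1.11 to -0.36) and Gstm2 (-0.66 to -0.20) lie below 0, and the other 13 span it.

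Gstp1, the pi-class enzyme known as a marker of early tumour foci in rat liver, read 1563, 1872, 2814 and 2736 in hypoxic pools, against 2237, 2373, 1971 and 2026 in normoxic pools. The hypoxic pools lay on both sides of the normoxic range, pools 1 and 2 below all normoxic pools and pools 3 and 4 above them. The means differed by a log2 value of 0.02 (95% interval -0.35 to 0.40; limma, adjusted p = 0.988), and the SD was 624 in hypoxic and 187 in normoxic pools. Mgst2, a microsomal enzyme able to make leukotriene C4, had the same order among hypoxic pools, with 2294, 2591, 3922 and 3668. Its normoxic pools read 2457, 3661, 3482 and 3009.7 (log2 -0.03), in another order than those of Gstp1, and hypoxic pool 2 lay above normoxic pool 1. For both genes the spread between hypoxic pools was wider than the difference between the groups.

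Theta-class genes did not separate the groups either. Gstt1, which acts on small halogenated compounds, read 1297, 1009.8, 888 and 1060.4 in hypoxic pools, against 862, 867, 1258 and 958 in normoxic pools. A single pool stood high in each group, and the log2 difference was 0.11 (95% interval -0.20 to 0.43). Gstt2, known for cleaving aryl sulfate esters, averaged 614 ± 64.4 in hypoxic and 604 ± 82.6 in normoxic glands (log2 0.03). Gstt3 averaged 3339 ± 499 in hypoxic and 3424 ± 213 in normoxic glands (SD, n = 4 pools each; log2 -0.05). In hypoxic pools 1 and 2 it read 2935 and 2880.3, below all normoxic pools, and in pools 3 and 4 it read 3746 and 3796, above them.

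Gsto1, the omega-class enzyme that reduces dehydroascorbate back to vitamin C, of which the adrenal holds a large store, read 5761, 5723, 5553 and 6283 in hypoxic pools, against 5719, 7282, 7284 and 6449 in normoxic pools. Normoxic pool 1 lay among the hypoxic pools and the other normoxic pools lay above all of them. The log2 difference was -0.19 with a 95% interval from -0.41 to 0.03 (limma, adjusted p = 0.638). Mgst3, a microsomal enzyme that also reduces lipid hydroperoxides, read 3478, 3371, 3987 and 4854 in hypoxic pools, against 3048, 3474, 3199 and 3458 in normoxic pools. Hypoxic pool 2 lay within the normoxic range, pool 1 just above its top and pools 3 and 4 further above it, with a log2 difference of 0.24 (95% interval -0.02 to 0.49; limma, adjusted p = 0.623). Mgst1, which sits in the endoplasmic reticulum and the outer mitochondrial membrane, averaged 10044 ± 952 in hypoxic and 10211 ± 1010 in normoxic glands (SD, n = 4 pools each). Its log2 difference was -0.02, with a 95% interval from -0.25 to 0.20.

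Whether any member changed by more than another was asked by comparing their log2 values within each pool. Of the 105 pairs of tested genes, 19 gave the smallest exact permutation p (0.0286), and none passed after adjustment over the pairs, where the lowest value was 0.158. With 4 pools a group, at least 61 of the 105 pairs would have had to reach the smallest p for any to pass, so the adjusted values cannot say whether members changed by different amounts. Gstm2 was in 10 of the 19 pairs, Gsta4 in 5, Mgst3 and Gsto1 in 4 each, Gsta1 in 3 and every other gene in 2 or fewer. Pairs share genes, so the 19 are not separate results. How often pairs of other probe sets reach this p was not computed. Gsta4 had a lower log2 difference than each of its 14 partners, by 0.30 against Gstm2 (exact permutation p = 0.257) and by 0.97 against Mgst3 (0.0286). Apart from Gsta4 and Gstm2, the 13 tested genes had log2 differences from -0.19 to 0.24, and their 95% intervals together covered -0.42 to 0.49, which is 0.746 to 1.41 times the normoxic level.

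The genes whose profile over the 8 pools was most like that of Gsta4, the member with the lowest p, were sought among 7996 named genes by Pearson correlation of log2 values. They were Foxm1, a transcription factor of dividing cells (r = 0.970), Mxra7 (0.969), the calcium-binding protein gene S100a13 (0.955), the Bcl2 family gene Bok (0.952) and Rgs2, a brake on G protein signalling (0.949). The points share arrays and groups, and after centring each group on its mean the correlations were 0.905, 0.900, 0.858, 0.843 and 0.853 in the same order. The 5 genes were picked as the highest of 7996 over these same 8 pools, so the centred values are no separate check. S100a13 averaged 181 ± 42.6 in hypoxic and 321 ± 71.1 in normoxic glands (SD, n = 4 pools each; log2 -0.77), Rgs2 724 ± 130 in hypoxic and 1081 ± 172 in normoxic glands (log2 -0.57), and Bok 1166 ± 177 in hypoxic and 1616 ± 74.6 in normoxic glands (log2 -0.48). Foxm1 had a log2 difference of -0.44 and Mxra7 one of -0.33. None of the 5 passed limma (adjusted p 0.180 to 0.430).

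Genes around the transferases were described from 5 lists, again chosen with results of these data known. Of all 11106 tested probe sets, 5016 were higher and 6090 lower in hypoxic pools. An unadjusted limma p under 0.05 was reached by 8.64% of them, and 5.39% had groups without overlap. Single genes without overlap are therefore no result about a list. In the supply of glutathione, 21 of 28 listed genes were measured, 10 higher and 11 lower, with a median log2 difference of -0.0012 and none past limma. At an unadjusted limma p under 0.05 there were 2 higher and 1 lower, and 1 in each direction had groups without overlap. Gclc, the catalytic subunit of the rate-limiting step of synthesis, differed by 0.22 and its partner Gclm by -0.02, while Gss, which completes the tripeptide, differed by 0.07 and the reductase Gsr by -0.04. Hagh, the glyoxalase that frees glutathione from lactoylglutathione, read 550.3, 504, 469 and 432 in hypoxic pools, against 374, 324, 286 and 314 in normoxic pools. Its groups did not overlap, and its log2 difference was 0.57 (limma, adjusted p = 0.131). Pgd, which makes NADPH in the pentose phosphate pathway, averaged 3911 ± 639 in hypoxic and 2902 ± 292 in normoxic glands (log2 0.42, adjusted p = 0.325), and the aminopeptidase gene Lap3 467 ± 51.2 in hypoxic and 574 ± 23.3 in normoxic glands (SD, n = 4 pools each; log2 -0.30, adjusted p = 0.438 in limma, groups without overlap).

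Export and further processing of glutathione conjugates had 8 of 18 listed genes measured, 3 higher and 5 lower, with a median of -0.07 and none past limma. At an unadjusted limma p under 0.05 there was 1, higher (4.16% of all tested probe sets), and 1 higher had groups without overlap (2.76%). Abcc1, a pump for glutathione conjugates, read 659.7, 661, 772 and 680.1 in hypoxic pools, against 565, 619, 597 and 525 in normoxic pools. All hypoxic pools were above all normoxic pools, with a log2 difference of 0.26 (limma, adjusted p = 0.499). The next by p were Kyat3 (log2 -0.30) and Kyat1 (log2 0.17), which cleave cysteine conjugates.

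Nrf2 and other genes of the antioxidant response gave 12 higher and 4 lower among 16 measured of 22, with a median of 0.05, none past limma and none at an unadjusted p under 0.05. Nfe2l2, which encodes Nrf2, differed by 0.06, its inhibitor Keap1 by 0.01, Nqo1 by 0.04 and Hmox1 by 0.13. The lowest p-values there belonged to the partner factor Mafk (log2 -0.28), Srxn1 (0.21) and Sqstm1 (0.18, while its other probe sets differed by -0.04 and -0.10).

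Other enzymes that clear aldehydes and epoxides had 14 of 21 genes measured, 10 higher and 4 lower, with a median of 0.09 and none past limma. At an unadjusted limma p under 0.05 there were 2, both higher (4.16% of all tested probe sets), and 1 higher had groups without overlap (2.76%). Cbr1, a carbonyl reductase, averaged 3506 ± 388 in hypoxic and 2898 ± 240.2 in normoxic glands (log2 0.27), and Aldh7a1, an aldehyde dehydrogenase, 2328 ± 178 in hypoxic and 2014.5 ± 62.1 in normoxic glands (SD, n = 4 pools each; log2 0.20, groups without overlap). The aldose reductase gene Akr1b1 had a log2 difference of -0.18. Transferases outside the symbol rule and structural relatives had 12 of 18 genes measured, 9 higher and 3 lower, with a median of 0.03, none past limma and 1, higher, at an unadjusted p under 0.05. Among them Gstk1, the mitochondrial kappa-class gene, differed by -0.03, the zeta-class gene Gstz1 by 0.02 and the prostaglandin D synthase gene Hpgds by -0.06. The lowest p-values were those of Mars1 (log2 0.27), Clic4 (0.24, while its other probe sets differed by -0.0070 and -0.50) and Vars1 (0.18).

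**Figure D4:**
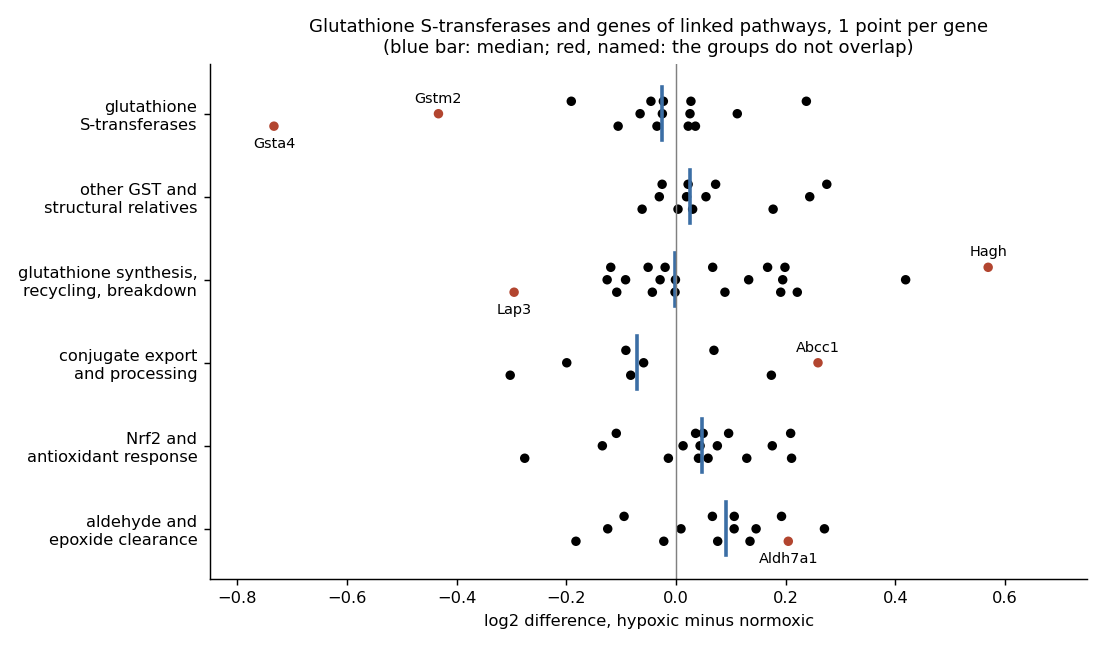
Log2 difference, hypoxic minus normoxic, of each tested glutathione S-transferase gene (top row) and of the measured genes of 5 linked lists, with blue bars at the medians and named red points for genes whose groups do not overlap. The medians lie between -0.07 and 0.09, with Gsta4 at -0.73 and Gstm2 at -0.43 at the left and Hagh at 0.57 at the right. Of all tested probe sets, 5.39% have groups that do not overlap.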

How the data were processed

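Biotin-labelled cRNA of 8 pools was hybridised to 1-colour oligonucleotide arrays, per the labels' protocols. The deposited table holds 1 intensity per probe set and array in arbitrary units (linear, not log), and each array's mean after trimming 2% at each end was 500.1, so the authors had scaled the arrays. Which software summarised the probes is not stated in the labels. Symbols were taken from the platform annotation (12783 of 15866 probe sets with 1 symbol, 312 with several, 2771 with none in the table used), and all 17 member genes matched a gene ID in the RefSeq table of GRCr8.

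Intensities were floored at 1 and converted to log2(intensity + 16), which understates changes of dim probe sets. Array medians lay within 0.117 on the log2 scale, so arrays were not normalised further. Probe sets with a mean log2 value under the 30th percentile (95.2) and 57 control probe sets were left out, which kept 11106. The 2 groups were fitted with limma 3.58.1 in R 4.3.3 (eBayes with a variance trend, two-sided, Benjamini-Hochberg over all tested probe sets, threshold 0.05). Pairs of members were compared by exact permutation over 70 splits. In data simulated for this comparison from the means and spreads of its 11106 probe sets, limma recovered 48 of 100 changes of 0.6 and 82 of 100 changes of 1 on the log2 scale, with 9 false calls. Both sets were changed in the same run, with noise drawn independently for each probe set. Recovery depends on how many probe sets change, so these shares are not the power for a change in the real pools. Python 3.11.15 with pandas 2.3.3 was used for tables.

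Members, lists and the rule for named genes (every member; per pathway list those past the threshold, otherwise the 3 of lowest p; the 5 genes most like the member of lowest p) were chosen with earlier results of these data known. A gene of a list was read at its brightest tested probe set. Of the 9 marker lists, the cortex, chromaffin and adipose lists are used most in the text. The median log2 differences of the other 6 were 0.09 (liver and kidney), -0.03 (endothelial), 0.04 (fibroblast), -0.22 (leukocyte), -0.03 (Schwann) and 0.25 (red cell), with 0 genes past limma in each. For cortex, chromaffin and adipose markers they were 0.01, 0.25 and -0.14, with 1 gene past limma (Slc18a2, chromaffin). Of all 11106 tested probe sets, 5016 were higher and 6090 lower in hypoxic pools. Of the 11 chromaffin markers measured, 11 were higher in hypoxic pools. Of these, 6 had an unadjusted limma p under 0.05 (4.16% of all tested probe sets) and 3 had groups that do not overlap (2.76%). Of 8 leukocyte markers, 5 were lower and 3 higher, with 3 lower at that threshold (4.48% of all tested probe sets) and 2 lower without overlap (2.64%). Of 8 endothelial markers, 1 was lower in both ways. All 5 red cell markers measured were higher, 2 at that threshold and 0 without overlap.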

Additional observations from a re-analysis of the deposited data

Results flagged for a closer look

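The Gstm2 value of hypoxic pool 3, at 250.8, lay apart from the other hypoxic pools, which read 279 to 282: its gap to them took up 0.882 of the group's range, above Dixon's critical value for 4 values. The Gstm7 value of hypoxic pool 1, at 969.8, was set off in the same way, with 0.839 of the range, the other hypoxic pools reading 1449.5 to 1542. These were 2 of 30 groups checked, and chance alone flags about 1 in 20.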

How the results depend on the processing

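No transferase passed limma under any of the 17 alternatives, the replicate block among them, and the lowest adjusted p was 0.064 for Gsta4, without hypoxic pool 1. Gsta4 stayed between -0.86 and -0.59 and Gstm2 between -0.45 and -0.38 over these alternatives. Mgst3, Gstm4, Gsto1 and Gstt1 also kept their direction in all of them. Of 255 values for the 15 genes, 30 turned, all among the other 9 genes. The 255 include fits that cannot change a log2 difference: no filter, the stricter filter, no variance trend and the replicate block. With the 5′ to 3′ signal ratio of Gapdh, a sign of RNA integrity, as a covariate, the turned values were 0.031 (Gstm7), -0.073 (Gstp1), -0.062 (Gstt2) and 0.00061 (Gstt3). With the adipose mean as a covariate they were -0.018 (Gstm1) and 0.014 (Gstm5), and with quantile normalization -0.0062 (Gstp1). With 1 pool left out, the ranges were -0.010 to 0.072 (Gsta1), -0.080 to 0.035 (Mgst1), -0.16 to 0.10 (Mgst2), -0.082 to 0.14 (Gstm1), -0.068 to 0.023 (Gstm5), -0.15 to 0.087 (Gstm7), -0.10 to 0.18 (Gstp1), -0.068 to 0.10 (Gstt2) and -0.11 to 0.021 (Gstt3). The count over all probe sets, 20, was 18 with the replicate block, 9 with the adipose covariate, and 0 with the Gapdh covariate, with no brightness filter or with no variance trend, where the lowest adjusted p was 0.0981, 0.0575 and 0.0770. It ran from 0 to 31 with 1 pool left out: 31 without hypoxic pool 1, 2 without hypoxic pool 4 and 1 without normoxic pool 4. In hypoxic pool 1 the 5′ to 3′ ratio of beta-actin was 0.249, against 0.413 to 0.744 in the other pools, while its Gapdh ratio was 0.618. The beta-actin ratio was not used as a covariate, so the Gapdh fit adjusts for RNA integrity only as far as Gapdh shows it. The count of pairs of members whose changes differ was 0 in its 11 alternatives, which the small number of pools nearly fixes and which says nothing of stability. Averaging probe sets was not run since each member gene has 1. Replicate numbers occur in both groups, but the labels do not say that equal numbers share a litter or day, so the numbers were not taken to pair the pools. The deviations of same-numbered pools from their group means correlated at 0.323, 0.0026, 0.186 and -0.0434, which does not settle whether pools were paired. With the replicate block the adjusted p in limma was 0.109 for Gsta4 and 0.259 for Gstm2. In each group, 2 of 4 pools correlated best with their own number in the other group. The causes were not tested.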
